A study of Mus musculus with 10 samples.

Results

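The transcriptome of mouse embryonic stem cells (ESC) lacking the DIDO3-specific exon16 (DIDO3ΔE16) was compared with that of wild-type (WT) ESC, and the genes and gene families that differed are described here. The unit of measurement was a 3′ feature, made of the annotated 3′UTR of a transcript and the 2 kb downstream of it on the mm10 genome, and its level was given as TPM, the share of transcripts that StringTie assigned to it on a scale with the same total in every library. Of 43031 such features in the series, 15615 shared no base with another feature on the same strand and were read here, and 11021 of these had a TPM above 0 in all 6 libraries and were tested. A gene was represented by its most abundant feature of this kind, which left 9018 tested genes of 12482. All ESC were of C57BL/6 origin and were grown with serum and leukemia inhibitory factor (LIF), on mitomycin C-treated mouse embryonic fibroblasts or on gelatin, without a record of which library came from which surface. The DIDO3ΔE16 ESC carried a homozygous deletion of a floxed exon, made by crossing mice to the Tg(SOX2-Cre)1Amc line, in which Cre is active in the epiblast, and nothing in the labels told whether the ESC of a group were 1 clone or several. Total RNA was sequenced from 3 DIDO3ΔE16 libraries (replicates 1, 2 and 3) and 3 WT libraries (replicates 1, 2-3 and 4, where the samples labelled 2 and 3 were 1 library). The replicates were described as RNA probes and not as separate cultures, so the p-values measure the spread between these libraries, which may be technical.

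DIDO3 is the largest product of the Dido1 gene, a nuclear protein with a PHD finger that reads histone H3 methylated at lysine 4, a domain related to the transcription elongation factor TFIIS and a SPOC domain, and it has been studied for its part in pluripotency exit, splicing and transcription termination. ESC grown with LIF and serum are a mixture. Most cells are in a naive pluripotent state, a few pass through a 2-cell-like state in which genes of the cleaving embryo (Zscan4, Tcstv, Usp17l, Eif1a-like and Pramef genes) are switched on, and others drift toward primitive endoderm, the extraembryonic layer marked by Gata6, Gata4, Sox7 and basement membrane proteins. Nodal, a TGF-beta ligand, keeps its own antagonists Lefty1 and Lefty2 switched on in pluripotent cells. In RNA from bulk cultures, a change in the number of cells of one type and a change in the RNA of that gene per cell cannot be told apart.

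The libraries carried between 1.46 and 2.27 Gb of sequence over all features, with ranges that overlapped between the groups. The number of features read here that were above 0 did not overlap, at 12123 to 12261 in WT and 12496 to 12775 in DIDO3ΔE16, although DIDO3ΔE16 replicate 1 had the least sequence. Pearson correlations of log2 TPM were 0.988 to 0.99 for the 6 pairs of libraries within a group and 0.958 to 0.963 for the 9 pairs between groups. The names of all DIDO3ΔE16 libraries and of WT replicate 2-3 begin with C79M, and those of WT replicates 1 and 4 with C7A9. These prefixes were read here as flow cell families, which the labels do not state. For several lists and some genes, but not all, the value against WT replicate 2-3 alone is therefore also given, called the within-family value. In it 1 library stands for WT and is assumed to vary like the others. In what follows, the 3 values of a group stand in the order of the replicates above, fold changes are on the log2(TPM + 0.1) scale with the standard error (SE) of limma, and a gene rose or fell where the change was at least 0.7 in size with an adjusted p under 0.05 in limma with Benjamini-Hochberg adjustment.

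The deletion was seen at the distal 3′ end of Dido1 (chr2:180655963-180659338, minus strand, 1376 bases of 3′UTR and the 2 kb beyond), which serves the DIDO3 form. It measured 17.9, 16.8 and 13.7 TPM in WT and 0.546, 0.511 and 0.307 TPM in DIDO3ΔE16 (log2 fold change -4.94 ± 0.23, adjusted p = 0.000502). All 3 mutant libraries were close to 0 at this end and none of the WT libraries was. The TPM summed over all 6 features of Dido1 changed by 0.36 on the log2 scale. This sum includes the proximal ends, which serve the shorter DIDO forms, and does not tell these forms apart. The study reported from its RNA sequencing that reads specific to the DIDO1 form were missing in DIDO3ΔE16 ESC. Markers of ESC were high in both groups. Tdgf1, the Nodal co-receptor Cripto, measured 2169, 2209 and 2384 TPM in WT and 2247, 2138 and 2081 TPM in DIDO3ΔE16, and Fgf4, an ESC growth factor, measured 671, 689 and 708 TPM in WT and 655, 669.9 and 667 TPM in DIDO3ΔE16. The summed level of the 9 ESC markers was 4235 to 4766 TPM in WT and 5180 to 6351 TPM in DIDO3ΔE16, and 0 of the 9 were called in limma, although the features of Pou5f1, Nanog, Zfp42 and Esrrb in this sum share bases with others, and those of Nanog and Esrrb varied widely between libraries of 1 group, so these are not read further. A weaker end of Esrrb that shares no base measured 25.5, 21.1 and 21.1 TPM in WT and 28.8, 28.6 and 27 TPM in DIDO3ΔE16 (log2 fold change 0.27, not called). Y-linked transcripts were present in all 6 libraries: Eif2s3y measured 13.1, 9.87 and 9.15 TPM in WT and 10.4, 12 and 11.8 TPM in DIDO3ΔE16. Of 12 markers of the feeder fibroblasts, 8 of the 10 that could be tested were higher in DIDO3ΔE16 and none was lower. Their summed level was 74.2 to 79.6 TPM in WT and 153 to 162 TPM in DIDO3ΔE16, Lum was at 0 in all 6 libraries and Dcn was at 0 in WT and at most 0.129 TPM in DIDO3ΔE16. The features of Dcn, Postn, Pdgfrb and Prrx1 in this sum share bases with others. The part of these cells in the results was not tested.

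Across the 11021 features tested, 1177 rose and 537 fell in DIDO3ΔE16 (15.6% called, 10.7% higher and 4.87% lower), with a median log2 fold change of -0.02. Counted by gene, 1038 of 9018 rose (11.5%) and 400 fell (4.44%). Of the 1438 genes called, 617 were also called in the within-family fit, which uses 4 of the same 6 libraries. The genes that rose were mostly weakly expressed in WT. Their median level was 1.41 TPM in WT and 5.15 TPM in DIDO3ΔE16, and 42.9% of them were under 1 TPM in WT, against 18.3% of all genes tested. The genes that fell had a median of 15.5 TPM in WT and 8.07 TPM in DIDO3ΔE16. The median log2 fold change by chromosome lay between -0.06 and 0.05 on the autosomes and was -0.02 on the X. The 3′UTRs of both sets were of ordinary length, with medians of 815 bases for genes that rose, 770.5 bases for genes that fell and 814 bases for all genes tested.

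**Figure D1:**
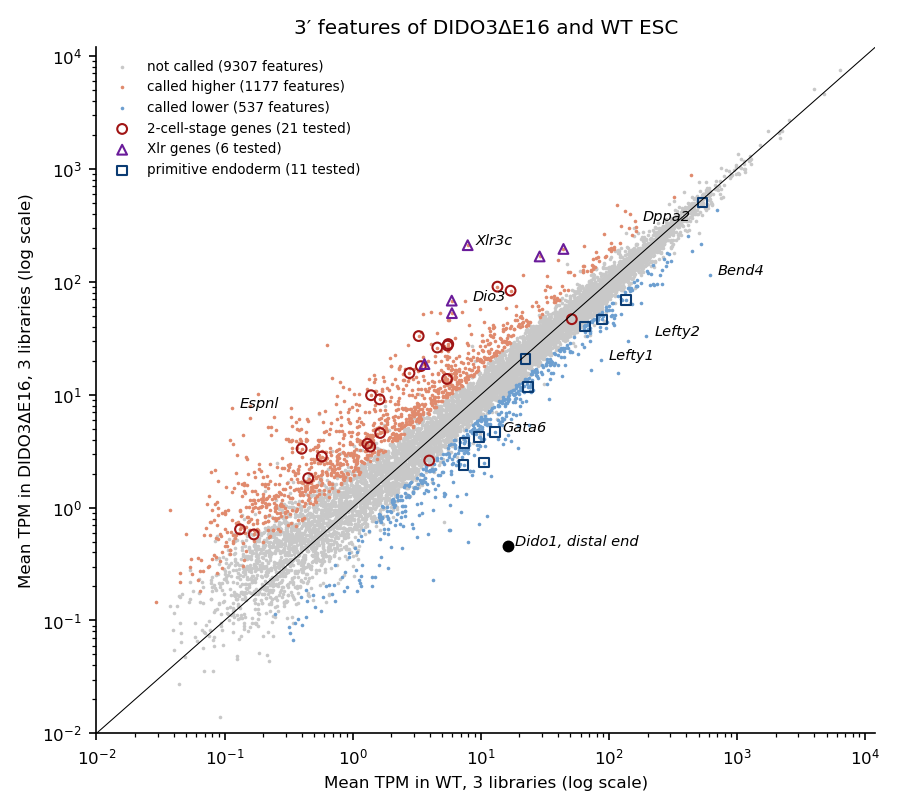
Mean TPM of each 3′ feature tested in 3 DIDO3ΔE16 libraries (vertical, log scale) against 3 WT libraries (horizontal, log scale), with called features in colour, genes of 3 lists ringed and the line of equal levels. All tested Xlr genes and 19 of 21 2-cell-stage genes lie above the line, all 11 tested primitive endoderm genes lie below it, and the distal Dido1 end is far below it at 16.1 TPM in WT and 0.455 TPM in DIDO3ΔE16.

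The genes of the 2-cell-stage embryo rose together, with 85.7% of those tested higher, against 11.5% of all genes. Of 21 tested, 18 rose and 3 were not called (median log2 fold change 2.23, against -0.01 for all genes), and 13 rose in the within-family fit. Zscan4a, a member of the Zscan4 family of SCAN and zinc finger proteins that act at telomeres of 2-cell-like cells, measured 13.8, 12.9 and 13.7 TPM in WT and 100.5, 91.8 and 79.2 TPM in DIDO3ΔE16 (log2 fold change 2.68 ± 0.1, adjusted p = 0.000316). Every mutant library was above every WT library by a wide margin, and the WT libraries lay close to each other. Tcstv1, a small protein of 2-cell-stage embryos, measured 1.14, 1.33 and 1.71 TPM in WT and 9.52, 11.1 and 9.06 TPM in DIDO3ΔE16 (log2 fold change 2.70 ± 0.19, adjusted p = 0.00138). Its neighbour Tcstv3 measured 0.575, 0.242 and 0.381 TPM in WT and 3.51, 3.42 and 3.02 TPM in DIDO3ΔE16 (log2 fold change 2.78 ± 0.29, adjusted p = 0.00348). The largest increase in the list was that of Gm4340, with 3.05, 2.65 and 4.12 TPM in WT and 40.2, 32.8 and 26.2 TPM in DIDO3ΔE16 (log2 fold change 3.24 ± 0.24, adjusted p = 0.00159). Its 100-base words are shared with other genes to 94.7%, so its reads could come from any of these copies. Zscan4c rose from a mean of 4.57 to 26.1 TPM (log2 fold change 2.42). Outside these families, Zfp352, a zinc finger gene of the 2-cell embryo, measured 0.471, 0.544 and 0.707 TPM in WT and 3.52, 2.55 and 2.43 TPM in DIDO3ΔE16 (log2 fold change 2.07 ± 0.24, adjusted p = 0.00456), with a within-family log2 fold change of 2.12 that was not called.

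Near-identical stretches were found in the promoters of several Zscan4 copies. The windows below are 30 bases of the RefSeq promoters (GRCm38.p6) of the 4 family members whose promoter holds the motif TATAAA upstream of the start, shown so that the likeness of the copies can be seen, and read 5′ to 3′ in the direction of the gene, with the motif TATAAA in capitals. They lie at chr7:10905059-10905088 on the minus strand for Zscan4b, chr7:11005684-11005713 on the plus strand for Zscan4c, chr7:11166191-11166220 on the minus strand for Zscan4d, chr7:11397877-11397906 on the plus strand for Zscan4f.
Zscan4b: cagaggcTATAAAagggaaccaatcctaat
Zscan4c: caggcgcTATAAAagggaaccaatcctaat
Zscan4d: caggggcTATAAAagggaaccaatcctaat
Zscan4f: caggcgcTATAAAagggaaccaatcctaat

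The windows of Zscan4c and Zscan4f are identical, so that the 4 genes have 3 different windows. The motif lies 31 to 65 bases upstream of the annotated start. TATAAA, searched on both strands, occurs in 3827 of 27025 promoters of 300 bases (14.2%), so its presence only describes these copies. All 4 genes rose. Zscan4b measured 15.2, 17.4 and 18.6 TPM in WT and 90.7, 85.3 and 74 TPM in DIDO3ΔE16, Zscan4d 3.26, 2.47 and 2.58 TPM in WT and 15.8, 15.4 and 15.4 TPM in DIDO3ΔE16 and Zscan4f 5.51, 4.11 and 6.86 TPM in WT and 32.8, 26.1 and 22.6 TPM in DIDO3ΔE16, with log2 fold changes of 2.23, 2.40 and 2.25, beside 2.42 for Zscan4c. Since 76.3% of the 100-base words of Zscan4b, 80.6% of those of Zscan4f and 29.6% of those of Zscan4d occur in another gene, the division of reads among the copies is uncertain, whereas all 6 members of the family tested rose.

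Genes that rose also lay side by side. Among tested genes placed in order along the chromosomes there were 34 runs of 3 or more neighbours that all rose and 4 runs that all fell, with up to 9 genes in a run. Since 11.5% of all genes rose and 4.44% fell, more runs that rose would be met in any order, and the counts were not tested. Several runs hold near copies, among which the division of reads is uncertain. Genes of the runs were named for their place. The run on chromosome X (9 genes from Pnma3 to Xlr3b, chrX:73066223-73204930) held the Xlr genes, germ cell and lymphoid relatives of the synaptonemal protein SYCP3. Xlr3c, in the same region, measured 7.36, 8.82 and 7.49 TPM in WT and 225, 211 and 196 TPM in DIDO3ΔE16 (log2 fold change 4.67 ± 0.099, adjusted p = 6.75e-05), one of the largest differences in the data, and Xlr3b measured 26.6, 29 and 30.7 TPM in WT and 187, 166 and 149 TPM in DIDO3ΔE16. All 6 tested Xlr genes rose (median log2 fold change 2.78), against 11.5% of all genes. The genes share 24.4% (Xlr3a) to 81.3% (Xlr5b) of their 100-base words with other genes, so the 6 are not separate observations. Among features over no other annotated gene, 3 Xlr genes were called higher. On chromosome 12, 9 predicted genes from Gm8300 to Gm5039 rose by 1.67 to 2.98 on the log2 scale over 803.7 kb (chr12:87517332-88321046). This is a region of Eif1a-like copies of the 2-cell embryo. Gm5662 measured 5.59, 4.83 and 6.22 TPM in WT and 48.2, 47.7 and 42.2 TPM in DIDO3ΔE16. On chromosome 4, 7 genes from Gm13040 to Pramef17, members of the Prame family expressed in oocytes and cleaving embryos, rose by 2.13 to 3.79. Gm13040 measured 4.24, 3.64 and 4.4 TPM in WT and 66.2, 53.3 and 40.8 TPM in DIDO3ΔE16, and 99.5% of its words are shared. A run on chromosome 10 (6 genes from Gm4301 to Gm4312) rose by 2.53 to 3.44, one on chromosome 13 (6 genes around Tcstv1 and Tcstv3, chr13:119846528-120320261) by 2.70 to 3.32, and the Zscan4 run on chromosome 7 (6 genes, chr7:10792241-11520688) by 2.23 to 2.68. The runs that fell were short, of 3 genes each. They included the metallothioneins Mt4, Mt3 and Mt2, then Mapk12, Mapk11 and Adm2, and last Dhrs7, Ppm1a and 4930447C04Rik. Some of these calls were near the threshold and were lost when 1 library was left out: Adm2 was not called without WT replicate 1, 2-3 or 4 or without DIDO3ΔE16 replicate 1 or 3 (log2 fold changes -0.94 to -0.66), Ppm1a was not called without WT replicate 1 or without DIDO3ΔE16 replicate 1 (log2 fold changes -0.67 to -0.63), Mt4 was not called without WT replicate 1 or 4 or without DIDO3ΔE16 replicate 1 or 2 (log2 fold changes -1.44 to -1.22) and, at the start of the run on chromosome X, Pnma3 was not called without DIDO3ΔE16 replicate 1 (log2 fold change 0.65). Of the genes that rose, 65 shared at least 50% of their 100-base words with another gene, and 5 of those that fell.

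**Figure D2:**
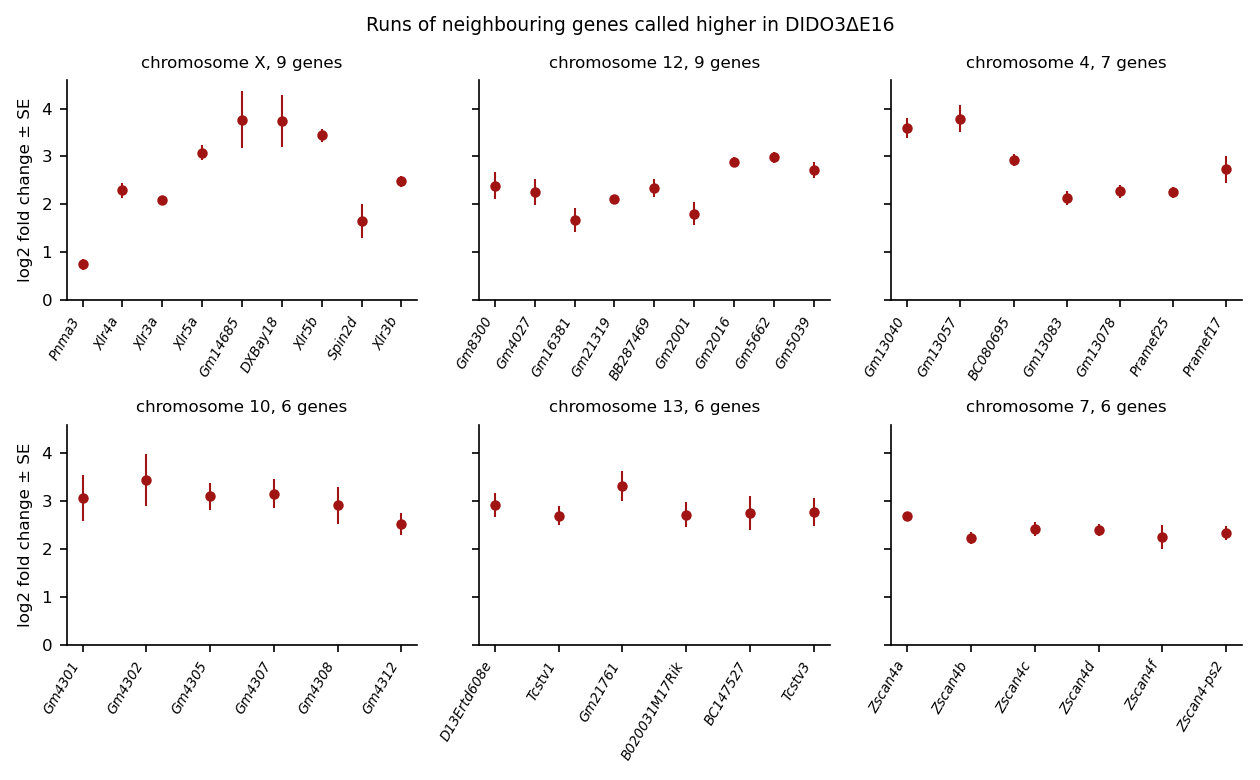
Log2 fold change (DIDO3ΔE16 minus WT, vertical) with its SE for each gene in the 6 longest runs of neighbouring genes that rose, in chromosomal order. Every gene is above 0.7, and within the runs on chromosomes 7, 10 and 13 the values lie close to each other, between 2.23 and 3.44.

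Genes of the primitive endoderm fell. Of 11 tested, 9 fell and 2 were not called (median log2 fold change -1.03), against 4.44% of all genes lower. In the within-family fit 3 fell. Gata6, the transcription factor that starts this lineage, measured 12.8, 12.3 and 13.6 TPM in WT and 3.75, 3.99 and 6.23 TPM in DIDO3ΔE16 (log2 fold change -1.54 ± 0.22, adjusted p = 0.008). Sox7, a later factor of the lineage, measured 9.1, 9.71 and 9.99 TPM in WT and 3.24, 4.79 and 4.72 TPM in DIDO3ΔE16 (log2 fold change -1.23 ± 0.18, adjusted p = 0.0091). The groups did not overlap for either gene, and no WT library was below 9 TPM for either. Cubn, the cubilin receptor by which the visceral endoderm takes up proteins and vitamins, measured 9.59, 10.4 and 11.7 TPM in WT and 2.55, 2.67 and 2.29 TPM in DIDO3ΔE16 (log2 fold change -2.08 ± 0.13, adjusted p = 0.000958), and Dab2, the adaptor for that uptake, 6.86, 7.82 and 7.66 TPM in WT and 3.97, 3.83 and 3.33 TPM in DIDO3ΔE16 (log2 fold change -1.04 ± 0.12, adjusted p = 0.00465). The within-family log2 fold changes were -1.47 for Gata6 and -1.11 for Dab2, and neither was called there. Foxq1, a forkhead factor, fell from 7.33 to 2.38 TPM, but 65.4% of its words are shared with another gene. The basement membrane genes of the list fell by less. Lama1, a laminin chain, fell from 23.3 to 11.8 TPM and Col4a1, a type IV collagen chain, from 135 to 68.6 TPM (within-family log2 fold changes -1.06 and -0.99, called for Col4a1 only). Among the 5 markers fixed for this lineage, 4 were lower, and their sum was 65.2 to 73.5 TPM in WT and 24.3 to 31.0 TPM in DIDO3ΔE16, so the groups were apart by more than their own ranges. The features of Gata4, Sox17 and Pdgfra in this sum share bases with others, and Gata6 and Dab2 are already described above. Gc, the vitamin D binding protein made by endoderm and liver, had 3.5, 4.53 and 4.7 TPM in WT and was listed at 0 in every DIDO3ΔE16 library, and it could not be tested for that reason.

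The Nodal antagonists Lefty1 and Lefty2 fell while Nodal itself was not called. In the list of Nodal, TGF-beta and BMP genes 4 of 31 rose and 4 fell (median -0.09), against 11.5% and 4.44% of all genes. Among ligands, Nodal measured 106, 103 and 109 TPM in WT and 137, 141 and 138 TPM in DIDO3ΔE16 (log2 fold change 0.33, below the size required), and Inhba, the activin beta A subunit, measured 25.1, 26.6 and 23.8 TPM in WT and 55.6, 64.2 and 64.5 TPM in DIDO3ΔE16 (log2 fold change 1.23 ± 0.08, adjusted p = 0.00109). The co-receptor Tdgf1 had a log2 fold change of -0.12. The Nodal antagonists fell most. Lefty2 (chr1:180897814-180901107) measured 205, 206 and 175 TPM in WT and 30.4, 36.6 and 32.8 TPM in DIDO3ΔE16 (log2 fold change -2.61 ± 0.095, adjusted p = 0.000276), with no overlap between the groups. Its neighbour Lefty1 measured 83.6, 92.6 and 84.9 TPM in WT and 18.9, 23.3 and 18.7 TPM in DIDO3ΔE16 (log2 fold change -2.16 ± 0.11, adjusted p = 0.000588). The within-family log2 fold changes were -2.69 for Lefty2 and -2.25 for Lefty1. The inhibitors of DNA binding, which answer to BMP, went in opposite directions. Id2 fell from 21 to 8.68 TPM (log2 fold change -1.32 ± 0.12, adjusted p = 0.00266) and Id3 rose from 63.8 to 209 TPM (log2 fold change 1.66 ± 0.044, adjusted p = 0.000117). Of the receptors and SMAD proteins, Tgfbr3 (betaglycan, an accessory receptor) rose from 5.15 to 12 TPM and Smad9, a BMP-activated SMAD, from 0.339 to 2.09 TPM, although the latter feature lies over Rfxap on the other strand.

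**Figure D3:**
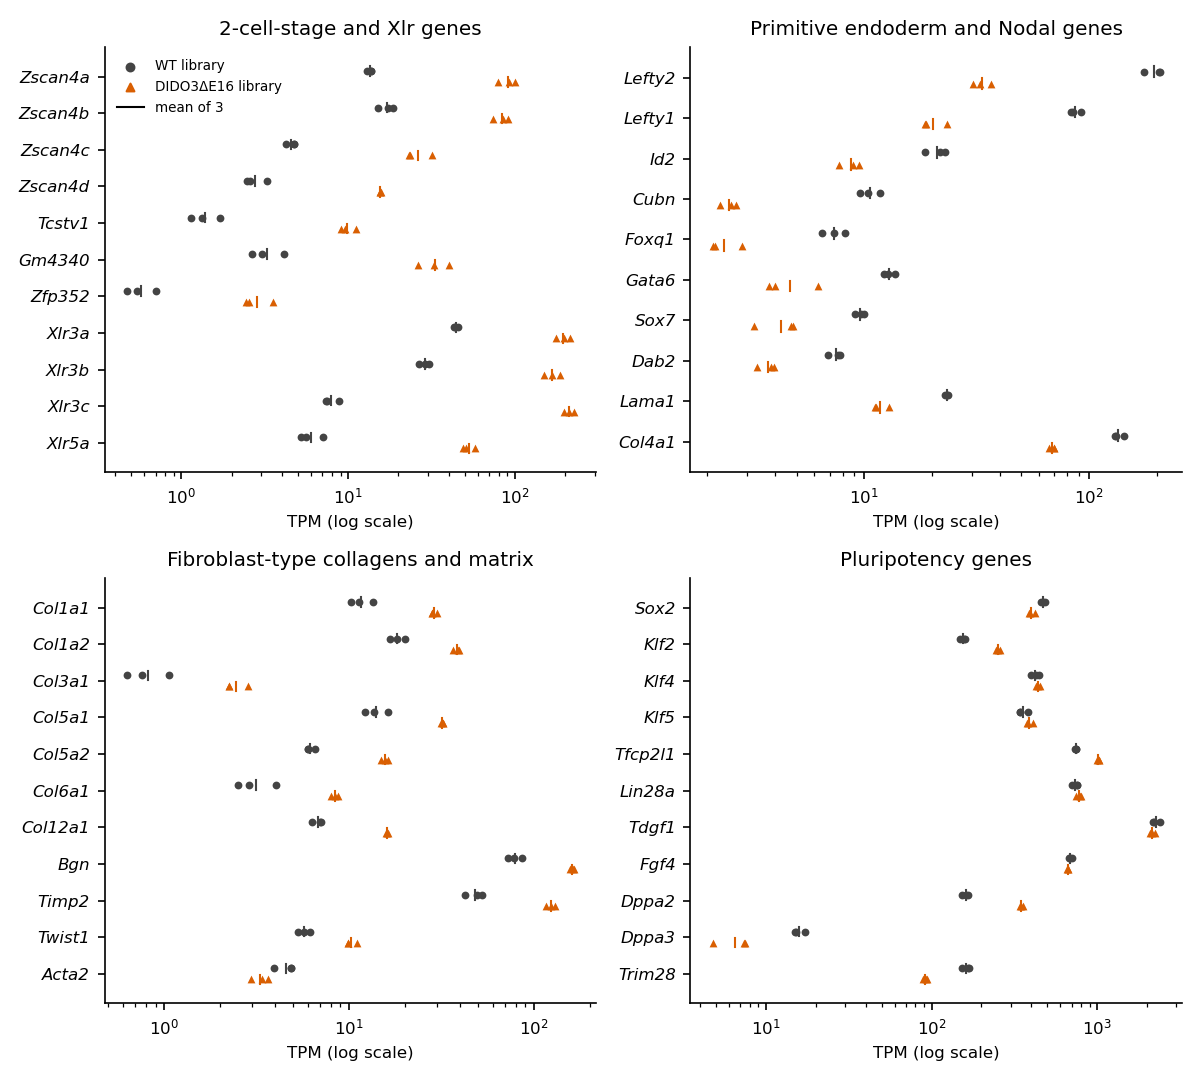
TPM (log scale) of named genes in each of 3 WT libraries (grey circles) and 3 DIDO3ΔE16 libraries (orange triangles), with the mean of each group as a short line. The groups are apart for the 2-cell-stage, Xlr, Nodal, primitive endoderm and collagen genes shown, whereas Klf4 and Lin28a overlap or nearly so.

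A few genes of the pluripotency network were called. Of 23 tested genes of the core and naive network 1 rose (4.35%) and 2 fell (8.70%), with a median of 0.07. Among all genes 11.5% rose and 4.44% fell. Sox2, which pairs with OCT4, measured 485, 459.5 and 473 TPM in WT and 392, 386 and 423 TPM in DIDO3ΔE16 (log2 fold change -0.30), and Klf4 444, 399 and 426 TPM in WT and 449, 426 and 439.5 TPM in DIDO3ΔE16 (log2 fold change 0.00). Tfcp2l1, a naive-state factor, measured 749.9, 733 and 740.5 TPM in WT and 1032, 1000 and 1019 TPM in DIDO3ΔE16 (log2 fold change 0.40, below the size required). The exceptions were Dppa2, Dppa3 and Trim28. Dppa2, which activates Zscan4 and other zygotic genes, measured 167, 162 and 152 TPM in WT and 341, 346 and 356 TPM in DIDO3ΔE16 (log2 fold change 1.06 ± 0.036, adjusted p = 0.000226). Dppa3 (Stella), a maternal factor that protects DNA methylation, measured 15.3, 17.2 and 15 TPM in WT and 7.44, 7.35 and 4.78 TPM in DIDO3ΔE16 (log2 fold change -1.35 ± 0.2, adjusted p = 0.0101, within-family -1.47, not called). Trim28, the KAP1 corepressor that silences retroelements with zinc finger proteins, measured 165, 152 and 167 TPM in WT and 88.5, 94.5 and 92 TPM in DIDO3ΔE16 (log2 fold change -0.87 ± 0.053, adjusted p = 0.000899). The Trim28 feature overlaps Chmp2a on the other strand. In the list of formative and primed epiblast genes 2 of 17 rose and 2 fell (11.8% each). Sox3, a SOXB1 factor related to Sox2, rose from 6.02 to 20.1 TPM and Foxd3, a forkhead factor of the epiblast, from 11.9 to 33.5 TPM, while Trh, a neuropeptide expressed in ESC, fell from 220.0 to 95.1 TPM and Sox11 from 53.4 to 32.3 TPM (called in the main fit, within-family log2 fold change -0.69 not called).

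Some genes of later lineages rose. Of 17 tested primitive streak and mesoderm genes 5 rose (29.4%, against 11.5% of all genes, median 0.46). Eomes, a T-box factor of streak and trophoblast, measured 22, 20.4 and 20.6 TPM in WT and 42, 44.8 and 42.4 TPM in DIDO3ΔE16 (log2 fold change 0.98 ± 0.054, adjusted p = 0.000732), and T (Brachyury) measured 1.82, 2.41 and 2.29 TPM in WT and 5.14, 4.72 and 3.67 TPM in DIDO3ΔE16 (log2 fold change 0.96 ± 0.2, adjusted p = 0.0243). Cdx1, a caudal factor, was the most abundant of them with 60.04, 62.9 and 68.9 TPM in WT and 142, 130.3 and 139 TPM in DIDO3ΔE16, and Foxf1 rose from 0.507 to 2.02 TPM and Snai1 from 5.43 to 10.3 TPM. The within-family fit called Eomes and Cdx1. T was not called without WT replicate 1, 2-3 or 4 or without DIDO3ΔE16 replicate 1 or 2 (log2 fold changes 0.84 to 1.04). Mixl1, another streak gene, measured 3.34, 2.32 and 2.51 TPM in WT and 2.01, 1.35 and 1.14 TPM in DIDO3ΔE16 and was not called (adjusted p = 0.0737). Among 15 neuroectoderm genes 2 rose and 2 fell, so that the share that rose (13.3%) was near that of all genes. Sox1, the first marker of neural fate, measured 9.43, 7.77 and 8.1 TPM in WT and 35.6, 32.7 and 34.6 TPM in DIDO3ΔE16 (log2 fold change 1.96 ± 0.092, adjusted p = 0.000503), and Olig2, a factor of the motor neuron and oligodendrocyte lineage, 86.1, 96 and 86 TPM in WT and 44.3, 48.2 and 57.8 TPM in DIDO3ΔE16 (log2 fold change -0.90 ± 0.11, adjusted p = 0.00589). Nefl fell from 42.6 to 25.3 TPM while Nefm rose from 0.658 to 1.64 TPM. These genes encode neurofilament subunits, lie next to each other on opposite strands, and the Nefl feature overlaps Nefm. Nefm was not called without DIDO3ΔE16 replicate 1, 2 or 3 (log2 fold changes 1.16 to 1.20). In the trophoblast list Krt7, a simple epithelial keratin, fell from 4.37 to 1.24 TPM, and Eomes was the 1 of 9 tested genes that rose. Krt7 was not called without WT replicate 2-3 or without DIDO3ΔE16 replicate 1, 2 or 3 (log2 fold changes -1.83 to -1.61).

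Hox genes, which pattern the body axis and are silenced by Polycomb in ESC, stayed low but rose in part. Of 24 tested, 11 rose (45.8%, against 11.5% of all genes, median 0.92), including the neighbours Hoxd13, Hoxd12 and Hoxd11. Hoxd13 measured 3.52, 2.96 and 3.21 TPM in WT and 7.46, 9.31 and 7.91 TPM in DIDO3ΔE16 (log2 fold change 1.26 ± 0.13, adjusted p = 0.00343) and Hoxc4 1.11, 1.21 and 1.39 TPM in WT and 3.91, 3.56 and 3.36 TPM in DIDO3ΔE16 (log2 fold change 1.42 ± 0.15, adjusted p = 0.00366). Hoxd12 rose from 0.132 to 0.925 TPM, Hoxa3 from 0.223 to 1.26 TPM, Hoxd11 from 0.208 to 0.818 TPM and Hoxc5 from 0.168 to 0.708 TPM, levels at which the fold rests on little sequence. Several of these features lie over another Hox gene or an antisense transcript, as for Hoxd12 over Hoxd11 and Hoxc5 over Hoxc4. The count depended on the libraries and the fit: only 1 rose in the within-family fit and 3 with flow cell family as a covariate. With 1 library left out the count was 5 without DIDO3ΔE16 replicate 1, 6 without WT replicate 1, WT replicate 2-3 or DIDO3ΔE16 replicate 2, 7 without DIDO3ΔE16 replicate 3 and 8 without WT replicate 4. Hoxd12 was not called without WT replicate 1 or 2-3 or without DIDO3ΔE16 replicate 1 or 3 (log2 fold changes 1.95 to 2.19), Hoxa3 was not called without WT replicate 1 or 4 or without DIDO3ΔE16 replicate 1, 2 or 3 (log2 fold changes 1.67 to 2.25), and Hoxc5 was not called without WT replicate 1, 2-3 or 4 or without DIDO3ΔE16 replicate 1 or 2 (log2 fold changes 1.28 to 1.65). Polycomb subunits were mostly not called, with 3 of 21 higher (14.3%), a share near that of all genes. Epop, a subunit that tempers Polycomb repression in ESC, measured 432, 451 and 435 TPM in WT and 872, 869 and 893 TPM in DIDO3ΔE16 (log2 fold change 0.94 ± 0.026, adjusted p = 0.000119). Bcorl1 rose from 8.47 to 16.7 TPM, and 1 feature of Aebp2 rose from 5.51 to 24.3 TPM while the sum over that gene changed by 0.46.

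Collagens moved in both directions, mostly up, with 50% of those tested higher and 8.33% lower, against 11.5% and 4.44% of all genes. Of 24 tested, 12 rose and 2 fell (median 0.86), and in the within-family fit 9 rose and 2 fell. Those that fell were Col4a1 and Col4a2, the type IV chains of basement membranes. Col4a2 measured 78.9, 90.1 and 94.6 TPM in WT and 47.1, 43.5 and 48.5 TPM in DIDO3ΔE16 (log2 fold change -0.97 ± 0.093, adjusted p = 0.00288). Those that rose were chains of several kinds. Col1a1, the main fibrillar chain of connective tissue, measured 10.2, 11.4 and 13.4 TPM in WT and 28.2, 28 and 29.9 TPM in DIDO3ΔE16 (log2 fold change 1.24 ± 0.12, adjusted p = 0.00319) and Col6a1, of beaded filaments, 2.88, 2.52 and 4.04 TPM in WT and 8.01, 8.69 and 8.36 TPM in DIDO3ΔE16 (log2 fold change 1.35 ± 0.2, adjusted p = 0.00968), and Col13a1, a transmembrane collagen, measured 1, 0.624 and 0.597 TPM in WT and 3.02, 3.09 and 3.33 TPM in DIDO3ΔE16 (log2 fold change 1.93 ± 0.22, adjusted p = 0.00451). Col3a1 rose from 0.815 to 2.44 TPM and Col22a1 from 0.613 to 2.08 TPM. In the wider list of extracellular matrix genes 12 of 33 rose (36.4%) and 4 fell (12.1%). Those that fell were these type IV chains and the laminins Lama1 and Lamb1. Lamb1 was not called without DIDO3ΔE16 replicate 1 (log2 fold change -0.69). Timp2, an inhibitor of metalloproteinases, rose from 47.9 to 123 TPM. Of genes tied to epithelial-mesenchymal transition 7 of 22 rose (31.8%). Among them were Twist2 (0.298 to 1 TPM), Anxa1 (8.21 to 20.9 TPM), S100a4 (2.44 to 5.56 TPM), Snai1 (5.43 to 10.3 TPM) and Zeb1, a repressor of E-cadherin (9.53 to 17.7 TPM). The feeder fibroblast genes moved with these groups. The broader list of them had 11 of 20 genes higher (55%, median 0.87), and many of its members are the same collagens. Their part in the result was not tested. Within that list Thy1 measured 19.4, 18.1 and 19.7 TPM in WT and 33.9, 29.6 and 32.3 TPM in DIDO3ΔE16 (log2 fold change 0.68) and Acta2, a smooth muscle and myofibroblast actin, 4.87, 3.91 and 4.86 TPM in WT and 3.37, 3.64 and 2.96 TPM in DIDO3ΔE16 (log2 fold change -0.49), neither of which was called.

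Genes of epithelial adhesion and polarity leaned the other way, with 8 of 29 lower and 2 higher (median -0.28) and 5 lower in the within-family fit. In the main fit 27.6% of the list was lower and 6.90% higher, against 4.44% and 11.5% of all genes. Esrp1, the splicing regulator that sets epithelial isoforms, measured 17.1, 16.2 and 15.4 TPM in WT and 3.81, 4.66 and 4.83 TPM in DIDO3ΔE16 (log2 fold change -1.91 ± 0.12, adjusted p = 0.00092) at this end, and the sum over its features changed by -1.74. Marveld3 and Cldn3, tight junction proteins, fell from 6.74 to 2.32 TPM and from 13.5 to 6.73 TPM, Pkp2, a plaque protein of desmosomes, from 38.2 to 18.9 TPM, and Podxl, a sialomucin of the apical surface, from 109 to 47.7 TPM. The members that rose were Jam2, a junctional adhesion molecule, with 125, 120.3 and 103 TPM in WT and 476, 478 and 476 TPM in DIDO3ΔE16 (log2 fold change 1.98 ± 0.069, adjusted p = 0.000239), and Dsp (desmoplakin), from 5.93 to 13.9 TPM. The Jam2 feature lies over Atp5j on the other strand. E-cadherin itself (Cdh1) measured 602, 582 and 596 TPM in WT and 434, 449 and 463 TPM in DIDO3ΔE16 (log2 fold change -0.46, adjusted p = 0.00117), below the size required.

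Imprinted genes, germline genes and the histone clusters shared a lean toward higher levels. The shares that rose were 33.3%, 26.1% and 27.6%, against 11.5% of all genes. Of 18 imprinted genes 6 rose and 1 fell (5.56%, against 4.44% of all genes, median 0.42). Dio3, the deiodinase that inactivates thyroid hormone and lies in the Dlk1-Dio3 domain, measured 8.03, 7.54 and 7.04 TPM in WT and 67.8, 65.2 and 71 TPM in DIDO3ΔE16 (log2 fold change 3.10 ± 0.068, adjusted p = 7.77e-05), with the same within-family value of 3.10. No other member moved as far. Xlr3b, Inpp5f, Zrsr1 and Kcnq1ot1 rose as well, with log2 fold changes of 2.48, 1.51, 1.27 and 1.02. The member that fell was Phlda2, a growth-restraining gene of the placenta, with 69.5, 178 and 172 TPM in WT and 33.4, 26.3 and 29.5 TPM in DIDO3ΔE16 (log2 fold change -2.17 ± 0.42, adjusted p = 0.0223). WT replicate 1 was well below the other WT libraries but above every mutant library. Phlda2 was not called without WT replicate 2-3 or 4 or without DIDO3ΔE16 replicate 1, 2 or 3 (log2 fold changes -2.26 to -1.94). Among germline and meiosis genes 6 of 23 rose. Syce1, of the synaptonemal complex, measured 14.7, 33.5 and 15.3 TPM in WT and 103, 121 and 119.8 TPM in DIDO3ΔE16 (log2 fold change 2.49 ± 0.36, adjusted p = 0.00926), with WT replicate 2-3 above the other WT libraries and a within-family log2 fold change of 1.71. Gtsf1, a protein of the piRNA pathway, rose from 0.521 to 1.51 TPM. Gtsf1 was not called without WT replicate 1, 2-3 or 4 or without DIDO3ΔE16 replicate 2 (log2 fold changes 1.21 to 1.40). Of 29 replication-dependent histone genes 8 rose (median 0.60), but 1 did so in the within-family fit. Hist1h2bk rose from 0.456 to 2.19 TPM and Hist2h3c1 from 2.25 to 7.4 TPM. Hist1h2bk shares 70.8% of its words with other genes and Hist2h3c1 all of them, so the copy is uncertain.

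Zinc finger and BTB-kelch families also had members that rose. Of 196 genes named Zfp 19 rose and 4 fell, against 11.5% and 4.44% of all genes, so the family was near the background. The largest increases were Zfp467 (0.125 to 2.92 TPM), Zfp389 (0.859 to 8.85 TPM), Zfp628 (1.46 to 12.9 TPM), Zfp784 (1.25 to 7.04 TPM) and Zfp352 described above. Of 25 BTB-kelch genes, which encode substrate adaptors of cullin ubiquitin ligases, 7 rose (28%) and 1 fell (4%). Klhl6 measured 2.11, 2.25 and 2.52 TPM in WT and 23, 15.3 and 11.8 TPM in DIDO3ΔE16 (log2 fold change 2.71 ± 0.27, adjusted p = 0.00322), and Klhl40 and Klhl41, known from skeletal muscle, rose from 0.391 to 4.05 TPM and 0.136 to 1.61 TPM. Klhl40 was not called without WT replicate 1 or without DIDO3ΔE16 replicate 1, 2 or 3 (log2 fold changes 3.17 to 3.41). Predicted genes named Gm rose in 64 of 191 cases (33.5%) and genes named Rik in 41 of 239 (17.2%), against 11.5% of all genes. Among the latter, B830017H08Rik measured 0.197, 0.998 and 0.683 TPM in WT and 25.8, 34.9 and 21.9 TPM in DIDO3ΔE16, with a feature that lies over Car15 on the other strand. In DNA damage response and repair 4 of 49 rose and 3 fell, a share under the background for increases. Xpa, which verifies damage in nucleotide excision repair, measured 2.6, 3.4 and 4.2 TPM in WT and 11, 11.5 and 11.5 TPM in DIDO3ΔE16 (log2 fold change 1.68 ± 0.2, adjusted p = 0.00485), Exo1, an exonuclease of mismatch repair, 36.6, 34 and 33.9 TPM in WT and 87.1, 90.1 and 92.6 TPM in DIDO3ΔE16 (log2 fold change 1.31 ± 0.045, adjusted p = 0.000237), and Ercc4 (XPF), an excision repair nuclease, rose from 11.3 to 28.1 TPM. Mdc1, a reader of phosphorylated histone H2AX, fell from 201 to 120.5 TPM. At Rad1, of the checkpoint clamp, the end read here rose from 0.249 to 1.22 TPM while the sum over the gene changed by -0.46.

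Stress and metabolic genes moved down in small numbers. Of 24 glycolysis and hypoxia genes 4 fell (16.7%, against 4.44% of all genes) and 20 were not called (median -0.35). Bnip3, a hypoxia-induced mitophagy receptor, measured 302, 272 and 336 TPM in WT and 132, 154 and 174 TPM in DIDO3ΔE16 (log2 fold change -1.05 ± 0.13, adjusted p = 0.00608), Ero1l, an oxidase of the endoplasmic reticulum, fell from 447 to 188 TPM and Egln3, an oxygen-sensing prolyl hydroxylase, from 176 to 96.7 TPM. None of the 4 was called in the within-family fit. At Eno1 the end read here fell from 88 to 51 TPM while the sum over the gene changed by -0.16. Of 30 genes of the amino acid and endoplasmic reticulum stress response 5 fell (16.7%). The largest decreases were those of Nupr1 (70.9 to 36.6 TPM), Ddit4 (284 to 149.8 TPM) and Trib3 (81.9 to 47.1 TPM), which are induced when cells are starved or stressed. Of 16 glutathione transferases 3 fell (18.8%). Gstm3 measured 14, 13.7 and 17 TPM in WT and 3.83, 3.74 and 3.35 TPM in DIDO3ΔE16 (log2 fold change -2.05 ± 0.13, adjusted p = 0.00103), Gstt1 fell from 3.37 to 1.76 TPM and Gstm1 from 80.5 to 46.2 TPM. Gstt1 was not called without WT replicate 2-3 or 4 or without DIDO3ΔE16 replicate 1, 2 or 3 (log2 fold changes -1.09 to -0.80), and Ero1l was not called without WT replicate 1, 2-3 or 4 or without DIDO3ΔE16 replicate 1 or 2 (log2 fold changes -1.43 to -1.17). The 3 metallothioneins tested, which bind zinc and copper, all fell, and Mt2, the abundant one, measured 275, 288 and 323 TPM in WT and 192, 166 and 174 TPM in DIDO3ΔE16 (log2 fold change -0.79 ± 0.093, adjusted p = 0.0049, within-family -0.75, not called). Gpx3, a secreted glutathione peroxidase, measured 40.3, 25.6 and 35.2 TPM in WT and 6.88, 13.1 and 7.29 TPM in DIDO3ΔE16 (log2 fold change -1.97 ± 0.32, adjusted p = 0.0122, within-family -1.61, not called), and Slc40a1 (ferroportin), the iron exporter, fell from 6.68 to 2.58 TPM. Slc40a1 was not called without WT replicate 1 or 2-3 or without DIDO3ΔE16 replicate 2 (log2 fold changes -1.47 to -1.33), and Mt4 was not called without WT replicate 1 or 4 or without DIDO3ΔE16 replicate 1 or 2 (log2 fold changes -1.44 to -1.22).

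Few genes of the machinery in which DIDO3 has been placed were called at these ends, and many could not be read. Of 53 genes of 3′ end processing and termination 38 were tested, and of 41 genes of R-loop resolution 24. Among all genes 11.5% were higher and 4.44% lower. In limma, 0 genes were called for mRNA 3′ end processing and termination (38 genes, of which 7 above 0 and 9 below 0 had an unadjusted p under 0.05, median -0.03), for R-loop resolution (24 genes, of which 4 above 0 and 7 below 0 had an unadjusted p under 0.05, median -0.10) and for actin and other cytoskeletal regulators (43 genes, of which 5 above 0 and 15 below 0 had an unadjusted p under 0.05, median -0.09). Of 51 splicing factors 3 fell: Esrp1 as above, Dhx16, a helicase of spliceosome activation, with 47.1, 50.6 and 52.3 TPM in WT and 24.9, 23 and 22.9 TPM in DIDO3ΔE16 (log2 fold change -1.13 ± 0.072, adjusted p = 0.00103), and 1 end of Mbnl2 (14 to 8.86 TPM). Mbnl2 was not called without WT replicate 1 or without DIDO3ΔE16 replicate 1 or 3 (log2 fold changes -0.70 to -0.67). Of 54 ribosomal protein genes 2 rose, Rpl39l (2.14 to 8.22 TPM) and Rpl10l (23.4 to 41 TPM), which are the retrotransposed copies used in testis. Of 64 subunits of the respiratory chain and ATP synthase 1 rose, Uqcrc2 (0.21 to 1.02 TPM), in a feature lying over Pdzd9, and of 31 replication genes 1 rose, Pold2 (31.5 to 84.8 TPM), in a feature lying over Aebp1. Uqcrc2 was not called without WT replicate 1, 2-3 or 4 or without DIDO3ΔE16 replicate 1 (log2 fold changes 1.68 to 1.78), and Pold2 was not called without WT replicate 1 or 4 or without DIDO3ΔE16 replicate 1, 2 or 3 (log2 fold changes 1.20 to 1.60). Among RNA polymerase II and elongation genes, 2 of 38 rose, Polr2i (0.122 to 2.02 TPM) and Polr2b (8.74 to 21.7 TPM), whose features lie over Ovol3 and Igfbp7 on the other strand, and 1 end of Cdk12 fell (10.2 to 5.2 TPM). Cholesterol synthesis genes had a median of -0.43 with 0 of 20 called, and 13 of them were below 0 with an unadjusted p under 0.05.

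**Figure D4:**
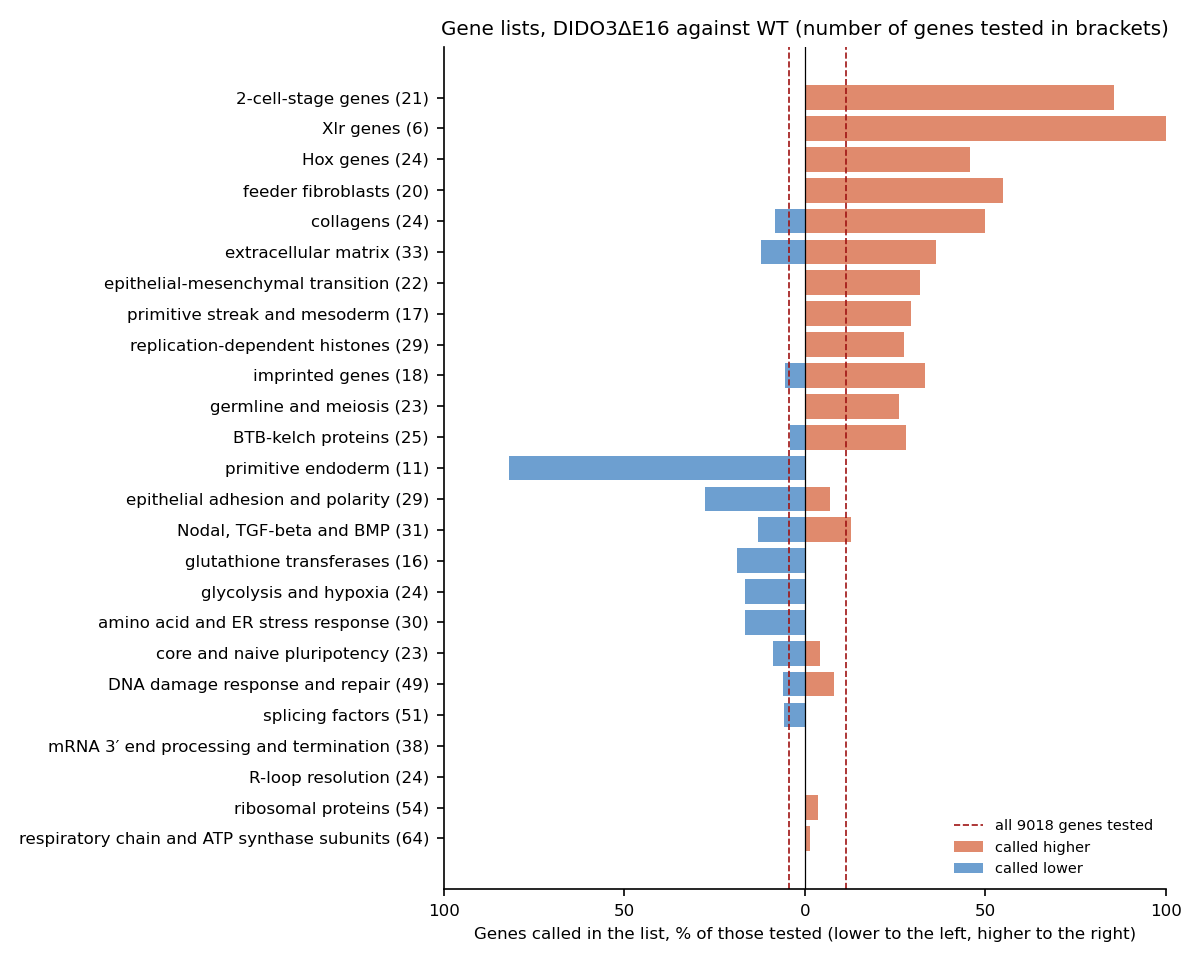
Share of the tested genes of each list (horizontal, %) that were called higher (right) or lower (left) in DIDO3ΔE16, with the number tested in brackets and dashed lines at the shares among all 9018 genes (11.5% higher, 4.44% lower). The 2-cell-stage and Xlr genes stand far to the right, primitive endoderm genes far to the left, and the lists of 3′ end processing and R-loop resolution have no called gene.

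The 15 largest increases among features with 5 TPM or more on average in DIDO3ΔE16 and no base shared on either strand were mostly in genes with little signal in WT, 13 of them under 1 TPM on average and the others being Xlr3c and Gm13057. B830017H08Rik, described above, rose by more (5.36) but shares bases with a feature on the other strand. Tex52, a testis gene (chr6:128384989-128387144), measured 0.064, 0.367 and 0.12 TPM in WT and 9.83, 10.8 and 9.68 TPM in DIDO3ΔE16 (log2 fold change 5.26 ± 0.42, adjusted p = 0.00186), and Espnl, an espin-like actin-binding protein (chr1:91345938-91350303), 0.104, 0.06 and 0.178 TPM in WT and 8.04, 7.5 and 7.41 TPM in DIDO3ΔE16 (log2 fold change 5.17 ± 0.25, adjusted p = 0.000524). No WT library reached 1 TPM for either and no mutant library was below 5 TPM. Receptors and enzymes of other tissues were among them. Galr2, a galanin receptor, measured 0.871, 0.489 and 1.04 TPM in WT and 14, 12.2 and 12.8 TPM in DIDO3ΔE16 (log2 fold change 3.86 ± 0.28, adjusted p = 0.00149), Htr5a, a serotonin receptor, 0.325, 0.417 and 0.256 TPM in WT and 6.53, 6.02 and 6.32 TPM in DIDO3ΔE16 (log2 fold change 3.85 ± 0.18, adjusted p = 0.000504), and Tssk1, a testis-specific kinase, 0.408, 0.225 and 0.353 TPM in WT and 7.34, 6.93 and 8.36 TPM in DIDO3ΔE16 (log2 fold change 4.13 ± 0.22, adjusted p = 0.00066). The others of the 15 were Xlr3c, Gm14685 and DXBay18 of the Xlr region, Gm13057 of the Prame region, Gm21119, Gm11544, Tmem154, Rnf223, 2610528A11Rik and 1700013H16Rik, with log2 fold changes of 3.64 to 4.67. All but Tmem154 have 1 feature, so that a change confined to 1 end could not be seen in them. The features of Tex52, Tssk1, Tmem154 and Gm14685 lie over the bodies of other genes on the opposite strand (Gm15862, Dgcr2, Gm37240 and Xlr5a). On the same strand, Tex52 lies over Gm44596, Xlr3c and DXBay18 over Xlr5a, and Gm13057 over BC080695. Reads of these genes may enter the features. In the within-family fit, 14 of the 15 were called and Gm14685 was not. Of the 15 genes, 10 share under 3% of their 100-base words with another gene.

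The 15 largest decreases chosen in the same way were mostly in genes with several features, 13 of the 15 having 2 to 12. For 11 of the 15 another feature of the same gene was more abundant. In the within-family fit 11 of the 15 were called, and those of Atp9a, Espn, Cadm1 and Slc15a2 were not. Beside Dido1, Wscd1 fell at its end at chr11:71760500-71762968 from 7.93 to 0.492 TPM while the gene as a whole changed by -0.59, and Espn (espin, an actin-bundling protein) fell at 1 of 10 features from 11.2 to 0.84 TPM while the gene changed by 0.11. Cit (citron kinase, of cytokinesis) fell at 1 end from 7.72 to 1.33 TPM with a gene value of 0.22, and Cadm1, a cell adhesion molecule, from 5.71 to 0.628 TPM with -0.06. Cadm1 was not called without WT replicate 2-3 or 4 (log2 fold change -3.20). Atp9a, Aig1, Ankrd12 and Asph fell at 1 end by 3.78, 2.87, 2.64 and 2.39 on the log2 scale. As whole genes they had log2 fold changes of -0.41, -0.69, -0.75 and -0.68, of which that of Ankrd12 alone passed the size and the adjusted p in limma. Other genes fell as a whole. Wdfy1, an endosomal FYVE protein, measured 120.2, 116 and 117 TPM in WT and 16.3, 16 and 14 TPM in DIDO3ΔE16 at its main end (chr1:79700262-79705510, log2 fold change -2.99 ± 0.074, adjusted p = 0.000106). A second feature, with 2 bases of 3′UTR and so almost wholly the 2 kb added downstream, changed by -2.56, and the gene by -2.72. Bend4, a BEN-domain protein, had the most precise of these values, 625, 626 and 584 TPM in WT and 114, 114 and 117 TPM in DIDO3ΔE16 (log2 fold change -2.46 ± 0.031, adjusted p = 3.33e-05). It has 1 feature, so an end not annotated would not be seen. Slc15a2, a peptide transporter, changed by -2.05 as a gene and Ccdc136 by -1.56. The Ccdc136 feature, the most abundant of its gene, has 1 base of 3′UTR and so is almost wholly the 2 kb added downstream.

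**Figure D5:**
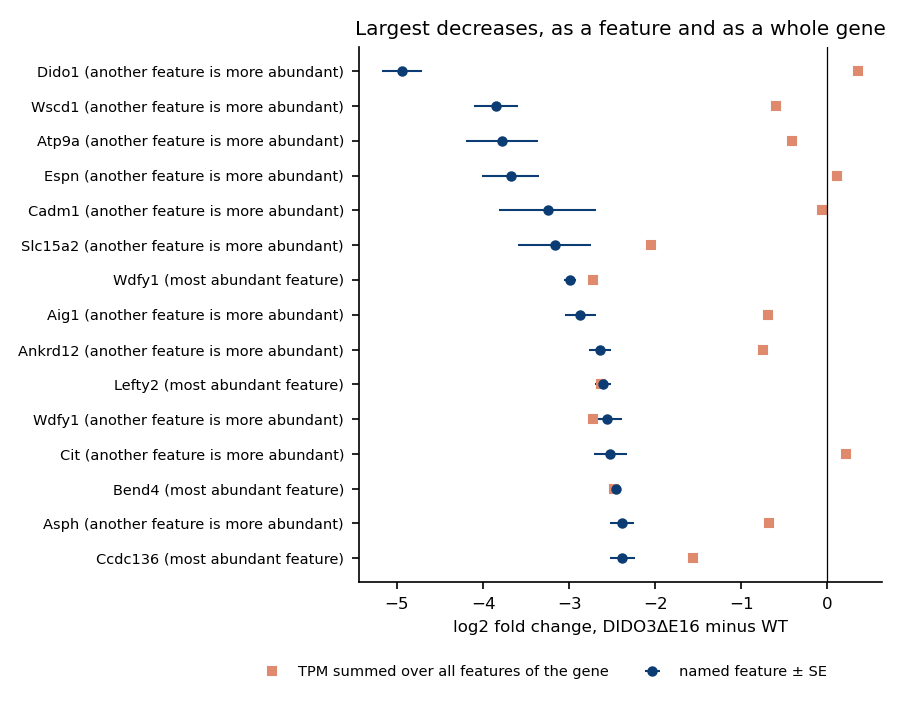
Log2 fold change (horizontal, DIDO3ΔE16 minus WT) of the 15 features with the largest decreases, as the feature itself with its SE (blue circles) and as the TPM summed over all features of the gene (orange squares). For Dido1, Espn, Cit and Cadm1 the gene value lies between -0.06 and 0.36, while for Wdfy1, Lefty2 and Bend4 both values are at -2.46 or below.

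Where a gene had more than 1 feature, often only some of them were called, which does not show that the others did not change. Of 1351 genes with at least 2 tested features, 318 had at least 1 called, and in 41 of these every feature was called in the same direction, 23 higher and 18 lower. In 137 genes some features rose and the rest were not called, in 126 some fell, and in 14 at least 1 feature rose and another fell. In 12 of these 14 the distal feature rose and the proximal one fell. These were seen from their values and no test was made of the order. Across all 1351 genes the distal end was changed relative to the proximal end by a median of 0.04 on the log2 scale, with 54.3% above 0. No test was made of this median.

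The third ESC line of the series, with the constitutive C-terminal deletion of DIDO3 and a hemagglutinin-tagged DIDO3 put back (DIDO3ΔCT+HADIDO3), gave the following values for the genes described, side by side and without a test. Zscan4a measured 37.8, 39.8 and 39.3 TPM there, between WT (13.8, 12.9 and 13.7 TPM) and DIDO3ΔE16 (100.5, 91.8 and 79.2 TPM). Lefty2 measured 104, 98.6 and 91.7 TPM, also between the other groups. Bend4 measured 286, 279 and 283 TPM, again between them. For other genes its values lay beyond those of WT, on the side away from DIDO3ΔE16. Xlr3c measured 1.83, 1.13 and 1.81 TPM, Dio3 4.2, 5.57 and 4.84 TPM and Wdfy1 162, 171 and 179 TPM. Some genes that fell in DIDO3ΔE16 were low in this line too. Col4a1 measured 34, 38.5 and 38.9 TPM and Esrp1 3.94, 5.63 and 5.99 TPM. Col1a1, at 10.2, 11.4 and 13.4 TPM in WT, measured 0.963, 0.957 and 1.51 TPM in this line, and Trim28 293, 299.9 and 279.7 TPM. Y-linked transcripts, present in the other groups, were absent from this line, with Eif2s3y, Kdm5d, Uty and Zfy1 listed at 0 in its 3 libraries. The line also differs from DIDO3ΔE16 in its deletion and derivation as well as in the tagged DIDO3, so these values belong to the line as a whole.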

How the data were processed

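Total RNA of WT and DIDO3ΔE16 ESC was sequenced in paired ends, in 3 libraries per group. Per the labels and the methods, the authors mapped reads with BWA 0.7.15 (mm10), removed duplicates, extended annotated 3′UTRs by 2 kb, estimated their levels with StringTie 1.3.3 and called changes with edgeR. The values used here are the deposited TPM, and since the deposited matrix holds no read counts, no count model was run. A setting for strand was not given in the sources used here for the estimation. Reads of a gene on the other strand may therefore enter a feature. Such overlaps are named for some genes and not for all.

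Features were named by overlap with the mm10 gene annotation. TPM values were scaled between libraries by a mean trimmed by 30% at each end, transformed as log2(TPM + 0.1), and fitted with limma 3.58.1 (R 4.3.3) with trend and robust moderation over the 24677 features above 0 in all 6 libraries, with Benjamini-Hochberg adjustment over all of them (12.6% called). Calls required a log2 fold change of 0.7 or more in either direction and an adjusted p under 0.05, as in the study's methods. Fold changes of genes near 0.1 TPM are understated by the pseudocount. With 3 libraries against 3 an exact permutation test cannot go below p = 0.1, so none was used for single genes.

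Named genes were the 15 features that rose most and the 15 that fell most, provided that they were called, had 5 TPM or more on average in the higher group, groups that did not overlap and no base shared on either strand. To these were added at most 5 called members of a described list in each direction, members said not to be called, and checks of the labels. Genes of runs, the other members of the Zscan4 family, and genes described because both ends differ were chosen after their values were seen. Some genes that meet these rules are not reported here. The members and the gene lists were chosen with earlier results of these data known. Likeness between genes was the share of words of 100 bases found in another annotated gene.

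In 5 simulated sets of 200 changed features among the 24677, of which 11021 share no base, the fit recovered 47.2% of features changed by 1 and 75.6% of those changed by 2 on the log2 scale, with a mean of 1.4 false calls and 0 calls of the wrong sign. The sets held independent normal noise around the WT means, with each feature's own spread and no difference between flow cells or cell lines. Far fewer features changed in them than the 12.6% called in the data, so these rates do not carry over to the calls. Alternatives covered the pseudocount, filters, scaling, flow cells, the replicate numbers, thresholds, each library left out, and gene sums. Further alternatives, the unrounded TPM of the transcript files and features over no other gene, were chosen after seeing the data.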

Additional observations from a re-analysis of the deposited data

Results flagged for a closer look

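The test required a TPM above 0 in all 6 libraries, so genes that were silent in one group lay outside it. Of the features read here, 133 were at 0 in every WT library and above 0 in every DIDO3ΔE16 library, against 12 in the opposite direction. Of the 133, 3 had at least 1 TPM in every DIDO3ΔE16 library. The number of features above 0 was also higher in each DIDO3ΔE16 library (12496 to 12775) than in each WT library (12123 to 12261). The values are given without a test. Palmd, which encodes palmdelphin, was listed at 0 in every WT library at this end and measured 2.23, 1.94 and 1.93 TPM in DIDO3ΔE16, a mean of 2.03 TPM. Another end of Palmd is more abundant, and the sum over both changed by 1.43 on the log2 scale. Lman1l, a lectin related to the cargo receptor of the secretory pathway, measured 1.4, 1.47 and 1.26 TPM in DIDO3ΔE16, a mean of 1.37 TPM, in a feature that overlaps Cplx3 on the same strand. Prss44, a serine protease of testis that lies in a run of neighbours that rose, measured 1.31, 1.59 and 1.2 TPM in DIDO3ΔE16, a mean of 1.37 TPM. Another end of Prss44 is more abundant, and the sum over both changed by 2.10 on the log2 scale. In DIDO3ΔCT+HADIDO3 ESC the highest value of these 3 features was 0.194 TPM, at Palmd.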

How the results depend on the processing

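Summing TPM over all features of a gene gave 1830 genes called higher and turned the direction at Dido1 (0.36), Espn (0.11), Cit (0.22) and Rad1 (-0.46), where the sum includes other ends. With flow cell family as a covariate 718 features were higher and 273 lower, and within the C79M family 580 and 175, fits with fewer degrees of freedom. At an adjusted p under 0.01 there were 704 and 324. In the within-family fit 3 primitive endoderm and 5 epithelial genes were lower. The Hox count of 11 was the least stable, with 3 under the flow cell covariate, 1 within the family, 4 at an adjusted p under 0.01, 5 with a pseudocount of 1, 5 among features averaging 1 TPM or more, 7 with quantile normalization and 4 among features over no other annotated gene, where 3 Xlr genes were higher. Apart from the fewer features and degrees of freedom, the cause was not tested. With 1 library left out the Hox count was 5 to 8, features higher 857 to 1030 and features lower 426 to 468. Deviations of same-numbered libraries had correlations of -0.05 to 0.022, and those of other pairs -0.031 to 0.036. These ranges are too alike to tell whether replicate numbers pair the samples. With the replicate block 632 features were higher, 248 lower and 3 Hox genes higher. For the named features, 3818 of 4150 values under an alternative kept direction and call, 316 lost the call, 12 gained it and 4 reversed, as above. Depth was 1.46 to 2.27 Gb, and as no reads per feature are given, levels under 1 TPM rest on an unknown number of reads.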

Other observations

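Families outside the comparisons above held single large changes. Adamts15, a secreted metalloproteinase of the extracellular matrix, measured 1.22, 1.45 and 1.74 TPM in WT and 14.8, 14.6 and 15.8 TPM in DIDO3ΔE16 (log2 fold change 3.23). Its relative Adamts17 measured 0.947, 1.09 and 0.791 TPM in WT and 6.53, 8.02 and 7.86 TPM in DIDO3ΔE16 (log2 fold change 2.81). Cldn15, a claudin of the gut that forms cation pores, measured 0.221, 0.54 and 0.569 TPM in WT and 6.03, 6.87 and 5.43 TPM in DIDO3ΔE16 (log2 fold change 3.53), whereas Cldn9, the abundant claudin tested in these ESC, measured 398, 413 and 430.2 TPM in WT and 246, 253 and 271 TPM in DIDO3ΔE16 (log2 fold change -0.75). In the list of Wnt pathway genes 5 of 24 rose and 2 fell, with a median log2 fold change of -0.04 and 11.5% of all genes higher. The ligand Wnt6 measured 1.33, 1.12 and 0.909 TPM in WT and 5.42, 4.42 and 6 TPM in DIDO3ΔE16 (log2 fold change 2.09), and the groups did not overlap. Wnt4, another ligand of the family, measured 0.443, 0.435 and 0.701 TPM in WT and 2.93, 2.56 and 2.52 TPM in DIDO3ΔE16 (log2 fold change 2.11). Those that fell were the receptor Fzd7 (log2 fold change -0.74) and Sfrp2, a secreted Wnt modulator (log2 fold change -0.74), while Cdx1, Gsk3b and T were the others that rose. Zfy1, a Y-linked zinc finger gene, measured 2.12, 1.43 and 1.31 TPM in WT and 9.22, 9.59 and 10.9 TPM in DIDO3ΔE16 (log2 fold change 2.51), while Kdm5d, also on the Y chromosome, measured 4.3, 4.96 and 4.93 TPM in WT and 5.03, 3.59 and 5.56 TPM in DIDO3ΔE16 (log2 fold change -0.08, not called). These genes were chosen after their values were seen.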
